A study of Mus musculus with 319 samples.

Results

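The constitutive proteasome genes were taken by symbol, as every probe whose gene symbol in the platform annotation begins with Psma, Psmb, Psmc or Psmd, apart from the immunoproteasome genes Psmb8, Psmb9 and Psmb10. The rule found 39 probes of 27 genes, out of 23382 probes and 11631 named genes on the arrays. Of the 27 genes, 14 encode the core particle (all 7 alpha and all 7 beta subunits, 23 probes) and 10 the regulatory particle (13 probes). The other 3 symbols fit the rule by name but encode no subunit of the assembled particle: Psmd5 and Psmd10 are assembly chaperones of the regulatory base, and Psmc3ip is a cofactor of meiotic recombination. A value on at least 80% of arrays was found for 37 of the 39 probes, covering all 27 genes, and these were tested. The 2 probes left out both belong to Psmb5.

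Muscle RNA came from 319 arrays of F2 mice of both sexes, bred from the strains C57BL/6J and C3H/HeJ. All animals, like both parental strains, lacked functional ApoE, and all ate a Western diet rich in fat from week 8 to week 24 of age. Each animal's RNA carried Cy3 and was hybridised against a Cy5 pool mixed from equal amounts of every sample's RNA, so each value is a log2 ratio of animal over pool and gives differences between animals, not the level of a gene. All arrays formed 1 group without treatment, genotype or batch labels. Animal number (1 to 359) was the only label given for all arrays that varied, so every result is a relation across arrays. A sex was labelled for 1 array only, and the descriptions name 330 animals. For 1 array the title and the source name give different animal numbers, and that of the source name was used. Number 227 is carried by 2 arrays, which correlated at 0.540 across probes and were kept as separate arrays. The sources used here do not name the muscle that was taken, and p-values cover only the spread between these samples. Of 8 muscle markers 1, the muscle glycogen phosphorylase Pygm, had a tested probe, and of 10 slow fibre markers 9 did, so the tissue label could be checked only in part.

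Ratios on an array had an SD of 0.213 to 1.08 and a median between -0.08 and 0.14. The Y-linked gene Eif2s3y lay at a median of -5.62 on 164 arrays and 1.08 on 155, so values above 0 stand for genes with more RNA in the animal, relative to the pool. Some arrays stood apart. A split of the mean z score of 11 lymphocyte genes placed 57 arrays above it (scores of 0.64 to 2.93) and 262 below (-0.85 to 0.55). The split lies where the sum of squares between the sides is largest, so it does not by itself show separate groups. In all, 102 arrays lay above such a split for lymphocyte, neutrophil or keratinocyte genes. These 102 are called arrays rich in other tissue below. The name stands for these splits only, and other tissue was not shown by other means. Fits on the immunoproteasome, oxidative phosphorylation, macrophages and animal number are given with and without these 102 arrays. The r between 2 arrays, across probes, ran between -0.602 and 0.847 over 50721 pairs and was under -0.3 for 3720 pairs. The labels state the dyes, so the direction was kept for all arrays.

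The 26S proteasome is the protease complex that degrades proteins tagged with ubiquitin. Its core is a barrel of outer alpha rings, which gate the entrance, and inner beta rings, which hold the catalytic sites of Psmb5, Psmb6 and Psmb7, and its regulatory particle has a base of ATPases that unfold the substrate and a lid that removes ubiquitin. In muscle the complex carries much of the breakdown of myofibrillar protein, and in immune cells or under interferon the catalytic subunits are replaced by Psmb8, Psmb9 and Psmb10. Transcription factors known to act on proteasome genes are Nfe2l1, Nfe2l2 and NF-Y.

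Promoter sequences were read from RefSeq, which held 300 bases (250 before and 50 after the start) for 21 of the 27 genes. Those of 6 members are shown because the results turn on how closely each followed the others: in each particle the available promoter of the member that followed the rest most and least closely, and the 2 available promoters of catalytic subunits. Capitals mark matches, on either strand, to 4 motifs: the antioxidant response element core TGACNNNGC, the NF-Y box CCAAT, the GC box GGGCGG and the ETS site CCGGAAG. No match to a motif overlapped a match to another.
Psmb3, GRCm38.p6, chr11:97703184-97703483, plus strand: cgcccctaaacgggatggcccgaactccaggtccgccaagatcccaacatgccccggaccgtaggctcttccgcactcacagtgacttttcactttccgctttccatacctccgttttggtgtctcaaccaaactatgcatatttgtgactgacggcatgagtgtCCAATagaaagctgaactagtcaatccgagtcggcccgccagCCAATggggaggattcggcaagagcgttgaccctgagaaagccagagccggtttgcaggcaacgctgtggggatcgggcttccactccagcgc
Psmb4, GRCm38.p6, chr3:94886909-94887208, minus strand: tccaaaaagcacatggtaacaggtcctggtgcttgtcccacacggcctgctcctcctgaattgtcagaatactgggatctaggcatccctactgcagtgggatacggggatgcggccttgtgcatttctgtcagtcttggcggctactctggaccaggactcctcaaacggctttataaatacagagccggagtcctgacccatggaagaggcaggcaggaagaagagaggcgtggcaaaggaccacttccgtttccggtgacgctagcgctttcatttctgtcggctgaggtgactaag
Psmc5, GRCm38.p6, chr11:106255935-106256234, plus strand: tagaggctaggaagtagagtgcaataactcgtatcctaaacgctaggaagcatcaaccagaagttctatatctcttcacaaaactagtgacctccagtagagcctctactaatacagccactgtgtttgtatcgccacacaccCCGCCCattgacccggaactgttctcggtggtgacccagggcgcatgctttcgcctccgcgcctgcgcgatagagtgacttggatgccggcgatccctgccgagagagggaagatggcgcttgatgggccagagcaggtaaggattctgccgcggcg
Psmc4, GRCm38.p6, chr7:28050043-28050342, minus strand: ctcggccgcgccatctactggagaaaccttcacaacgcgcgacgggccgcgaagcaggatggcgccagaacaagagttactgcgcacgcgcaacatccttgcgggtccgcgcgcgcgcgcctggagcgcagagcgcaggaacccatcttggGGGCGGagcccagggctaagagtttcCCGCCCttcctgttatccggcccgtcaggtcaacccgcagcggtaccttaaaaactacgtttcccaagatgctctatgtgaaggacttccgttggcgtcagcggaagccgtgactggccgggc
Psmb5, GRCm38.p6, chr14:54617946-54618245, minus strand: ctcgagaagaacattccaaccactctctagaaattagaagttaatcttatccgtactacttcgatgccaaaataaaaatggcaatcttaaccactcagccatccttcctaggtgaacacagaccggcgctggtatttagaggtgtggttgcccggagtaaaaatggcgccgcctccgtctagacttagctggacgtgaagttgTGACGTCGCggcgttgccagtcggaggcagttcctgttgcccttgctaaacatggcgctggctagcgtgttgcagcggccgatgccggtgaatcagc
Psmb6, GRCm38.p6, chr11:70525107-70525406, plus strand: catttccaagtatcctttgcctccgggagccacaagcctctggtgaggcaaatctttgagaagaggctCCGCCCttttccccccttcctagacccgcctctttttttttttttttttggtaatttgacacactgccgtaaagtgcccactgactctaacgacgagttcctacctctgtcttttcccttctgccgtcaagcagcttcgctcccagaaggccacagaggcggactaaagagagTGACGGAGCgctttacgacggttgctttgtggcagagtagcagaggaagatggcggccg
The 21 member promoters shared no single motif. CCAAT was found in 11 of 21 (52.4%), against 37.9% of all 27025 promoters, and GGGCGG in 11 of 21 (52.4%), against 35.9%. CCGGAAG was in 5 (23.8%, against 9.12%), namely those of Psmc1, Psmd2, Psmd4, Psmd13 and Psmc3ip. The antioxidant response element core, the site bound by Nfe2l1 and Nfe2l2, was in 2 (9.52%, against 12.5%), the catalytic genes Psmb5 and Psmb6 printed here. No match was found for Psma5 and Psmb4. A match is a description of letters in this window.

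The members varied little, and less than the arrays' typical probe by a small margin. Over the 37 tested probes the median SD across arrays was 0.213, against 0.227 over all tested probes, and 18 of 37 lay above that overall median. The SDs ran between 0.108 for a probe of Psmd4, a ubiquitin receptor, and 0.466 for a probe of Psma4. No member value reached the limits of the deposited scale. The array of animal 75 gave the lowest value of 18 of the 37 probes, and the array of animal 256 the highest of 16, so much of the range of single genes came from a few arrays.

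**Figure D1:**
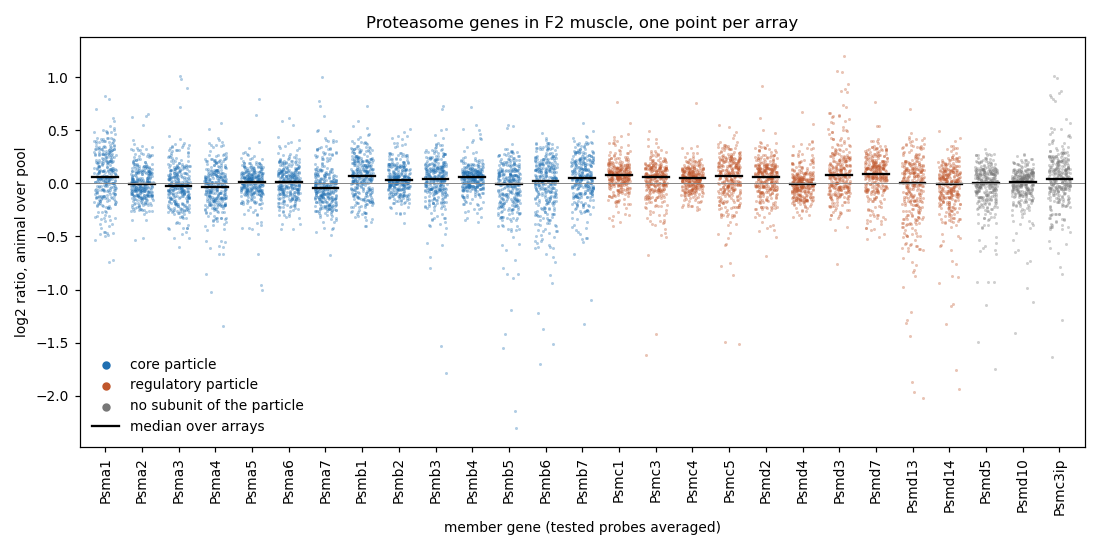
Log2 ratio of animal over pool (vertical axis) for the 27 genes, with 1 point per array and a black line at the median of 319 arrays; genes of the core particle are blue, of the regulatory particle orange, and the rest grey. Medians sit close to 0, and the long tails of Psmb5, Psmb6, Psmd13 and Psmd14 point down, to -2.31, -1.71, -2.02 and -1.94.

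In the alpha ring, which gates the barrel, all members went with the rest of the complex to some degree. The measure was Pearson's r across arrays between a gene, averaged over its tested probes, and the mean z score of the other 26 member genes. It was highest for Psma5 (0.799) and Psma4 (0.722), followed by Psma7 (0.547), Psma2 (0.531), Psma6 (0.486), Psma3 (0.486) and Psma1 (0.354). Psma5 had values of -1.01, 0.013 and 0.80 at its lowest, median and highest array. Psma2 and Psma3, with ranges of -0.54 to 0.66 and -0.60 to 1.01, were the closest pair within the ring (r = 0.851, rho = 0.835). None of the 21 alpha pairs had an r below 0.

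Psma4 is a case where the probes disagreed. Probe 10024415562 had the largest SD of all members, with a lowest value of -3.52, a median of -0.025 and a highest of 0.43. Probe 10024406804 ran between -0.58 and 0.97 with a median of -0.0075. Across 317 arrays the probes correlated at r = -0.367 (rho = -0.0296), and their r with the other members was 0.648 and 0.0674. Slopes for Psma4 are therefore given by probe. Its r of 0.722 above, the gene pairs and the core mean rest on the average of the 2 probes.

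In the beta ring the members divided more sharply. Psmb3, a structural subunit, followed the others most closely in the core (r = 0.803), with -1.79, 0.043 and 0.73 at its lowest, median and highest array. Psmb4, another structural subunit, followed them least (r = 0.0915), with -0.37, 0.056 and 0.72. The highest Psmb4 value came from animal 55, one of the lowest arrays for the complex as a whole. Psmb2 was also loosely tied (r = 0.155, range -0.38 to 0.51). Psmb1 had an r of 0.361, but its probes split: 10024400430 (range -0.72 to 0.56) had an r of 0.708 with the others and 10024409614 (range -0.51 to 1.10) one of -0.063, and the probes correlated with each other at 0.196.

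By their tested probes the catalytic subunits went together. Psmb5, the chymotrypsin-like site, had values of -2.31, -0.0068 and 0.55 at its lowest, median and highest array and an r of 0.728 with the other members. Psmb6, the caspase-like site, had -1.71, 0.025 and 0.47 (r = 0.696). Psmb7, the trypsin-like site, had -1.32, 0.051 and 0.57 (r = 0.781). All 3 were lowest on the array of animal 75, and the pairs correlated at 0.853 (Psmb5 with Psmb6), 0.731 (Psmb5 with Psmb7) and 0.636 (Psmb6 with Psmb7). The 2 untested Psmb5 probes had values on 55.5% and 76.2% of arrays. They correlated at -0.227 and -0.244 with the tested one and at 0.939 with each other. Both were highest on the array where the tested probe was lowest, that of animal 75. Their r with the other members was 0.154 and 0.113, so all results for Psmb5 rest on the tested probe alone.

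In the regulatory base, Psmc3, an ATPase, followed the other members most closely of all 27 genes (r = 0.832), with values of -1.62, 0.061 and 0.50. Psmc5, also an ATPase, had an r of 0.743 (range -1.51 to 0.55), and the 2 correlated at 0.855. The ATPases Psmc1 (r = 0.373, range -0.40 to 0.77) and Psmc4 (r = 0.320, range -0.25 to 0.76) were less tied to the whole, and correlated with each other at 0.736. Psmd2, a large scaffold of the base, had an r of 0.719 (range -0.69 to 0.92). For the ubiquitin receptor Psmd4 (r = 0.340) the probes correlated at 0.198, with r of 0.0227 for 10024398553 (range -0.36 to 0.48) and 0.391 for 10024402275 (range -0.72 to 1.19).

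The lid held the greatest contrast. Psmd3, a structural subunit, ran against the rest (r = -0.208), with -0.76, 0.079 and 1.20 at its lowest, median and highest array. Its highest value came from animal 55, where Psmd13 and Psmc5 were lowest. Psmd14, the deubiquitinase that takes ubiquitin chains off the substrate, had an r of 0.653 with -1.94, -0.00060 and 0.49. Psmd13, a structural subunit with the largest SD of a gene (0.356), had an r of 0.598 with -2.02, 0.0023 and 0.70. Psmd7, the partner of Psmd14, had an r of 0.573 with -0.53, 0.093 and 0.76.

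The members that are no subunit went with the complex less closely than most subunits did. Psmd5 had an r of 0.492 (-1.75, 0.0026 and 0.33 at the lowest, median and highest array) and Psmd10 one of 0.429 (-1.41, 0.017 and 0.28). They correlated with each other at 0.852, and each had an r over 0.5 with 10 of the 24 subunits, against 0 for Psmc3ip. Psmc3ip had an r of -0.00407 (-1.63, 0.046 and 1.01). Without the 102 arrays rich in other tissue the r of Psmd5 was 0.195, that of Psmd10 0.337 and that of Psmc3ip -0.146. Of the subunits, Psmd7 (0.370, against 0.573 on all arrays) and Psmb4 (0.210, against 0.0915) moved by more than 1.5 times there, and the others by less.

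The 8 genes with several probes gave 13 pairs of tested probes, whose r had a median of 0.452 and ran between -0.367 and 0.993. It was over 0.5 for 6 pairs and under 0.2 for 3, those of Psma4, Psmb1 and Psmd4. For the 4 probes of Psma5 it ran between 0.280 and 0.988, while the pairs of Psmb3 (0.993), Psmc1 (0.966) and Psmb7 (0.924) were near 1. Averages over probes are thus firm for these 3 genes and loose for the first 3. Psmb5 had 1 tested probe and so gave no pair, though its untested probes ran against that probe.

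As a set the members correlated with each other more often than probes in general. Of 653 pairs of member probes of different genes, 167 (25.6%) had an r over 0.5, against 4.88% of all pairs of tested probes, and the median r was 0.289, against 0.0055. Over gene pairs the mean r was 0.333 in the core (SD of pairs 0.286, 91 pairs) and 0.324 in the regulatory particle (SD 0.378, 45 pairs). Pairs of a core with a regulatory gene averaged 0.264 (SD 0.328, 140 pairs). The alpha ring averaged 0.423, the beta ring 0.249, the base 0.455 and the lid 0.0155. Pairs share arrays and genes, so these are descriptions with no test.

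The division did not follow the particles. Psmb5 correlated with Psmd14 at 0.902, Psmb6 with Psmd13 at 0.897, Psmb3 with Psmc3 at 0.850 and Psmd14 with the chaperone Psmd10 at 0.870. A smaller set, Psmc1, Psmc4, Psmb2, Psmb4 and Psmd3, was tied within itself and not to those: Psmb2 correlated with Psmc4 at 0.685 and with Psmc1 at 0.610, Psmb4 with Psmc1 at 0.585, and Psmd3 with Psmc1 at 0.654. Between the sets many pairs ran below 0. Psmd3 had an r of -0.745 with Psmd5, -0.735 with Psmd10, -0.635 with Psmd14, -0.627 with Psmd13, -0.598 with Psmb5 and -0.570 with Psmb6. The sets were seen in these values and are named here as a description. Rank correlations were closer to 0 for all of these pairs (0.797 for Psmb5 with Psmd14 and -0.447 for Psmd3 with Psmd14). Without the 102 arrays rich in other tissue the first 4 pairs had an r of 0.783, 0.866, 0.688 and 0.758, and the 6 pairs of Psmd3 named last between -0.539 and -0.752.

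**Figure D2:**
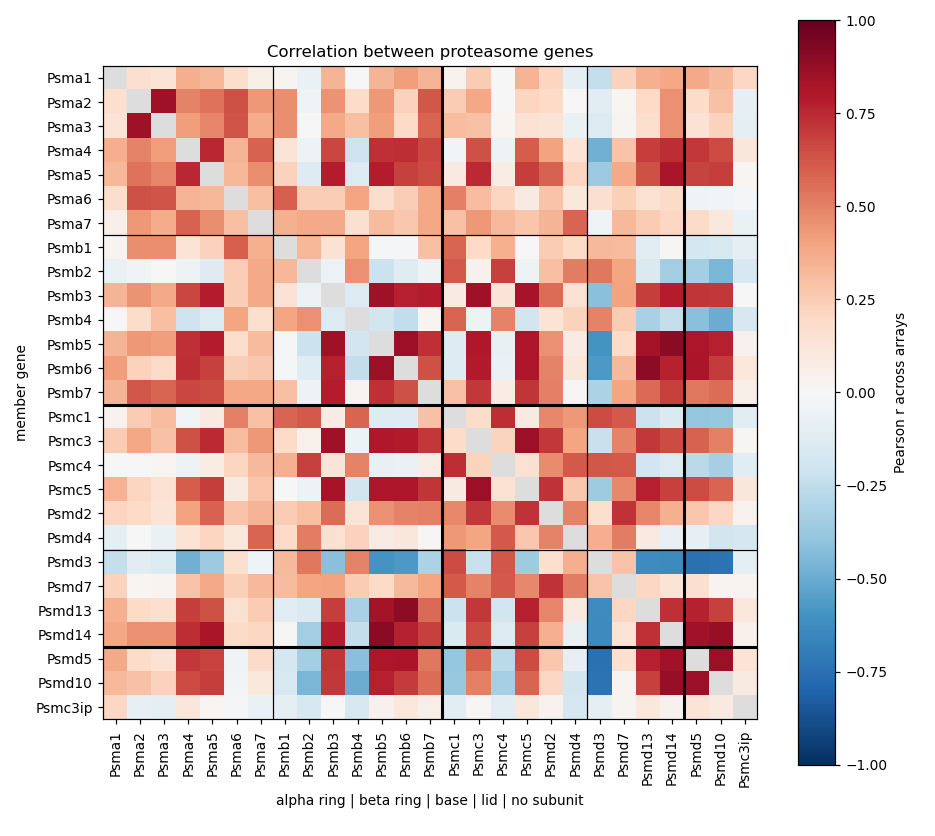
Pearson's r across 319 arrays for each pair of the 27 genes (colour, from -1 in blue to 1 in red), ordered by alpha ring, beta ring, base, lid and no subunit, with heavy lines around the particles. The row of Psmd3 is blue against Psmd5, Psmd10, Psmd13 and Psmd14 (-0.627 to -0.745) and red against Psmc1 (0.654).

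The mean z scores of core and regulatory genes correlated at r = 0.684 (rho = 0.558) across 319 arrays, and at 0.664 without the 2 arrays farthest from the median core score. The core mean ran between -0.64 and 0.50 log2 units with a median of 0.021, and the regulatory mean between -0.67 and 0.61 with a median of 0.047. The difference of core minus regulatory mean lay between -0.25 and 0.29. The r was 0.618 on the 57 arrays above the lymphocyte split and 0.560 on the 262 below it, so it was present on both sides. The arrays of animals 75, 55 and 311 had the lowest means over all 24 subunits (-0.65, -0.57 and -0.40), and all 3 lay above the lymphocyte split, with lymphocyte scores of 2.29, 2.26 and 2.58. Next came animals 219 (-0.32) and 239 (-0.31), below the split with lymphocyte scores of 0.490 and 0.485. Ratios spread widely on these arrays: the array SD was 0.995, 0.927, 0.736 and 0.760 for animals 75, 55, 219 and 239. It was 0.545 for animal 311, and the median array SD was 0.358. All but animal 311 were among the arrays of outlying SD. Of the 24 subunits, 16 were below 0 for animals 75, 55 and 239, 15 for animal 219 and 23 for animal 311. The highest means were 0.51 for animal 256, 0.38 for animal 340 and 0.34 for animal 225. In animal 256 the regulatory genes stood higher (0.61, against 0.44 for the core), and in animals 340 and 225 the core did (0.50 and 0.46, against 0.21 and 0.18 for the regulatory genes).

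**Figure D3:**
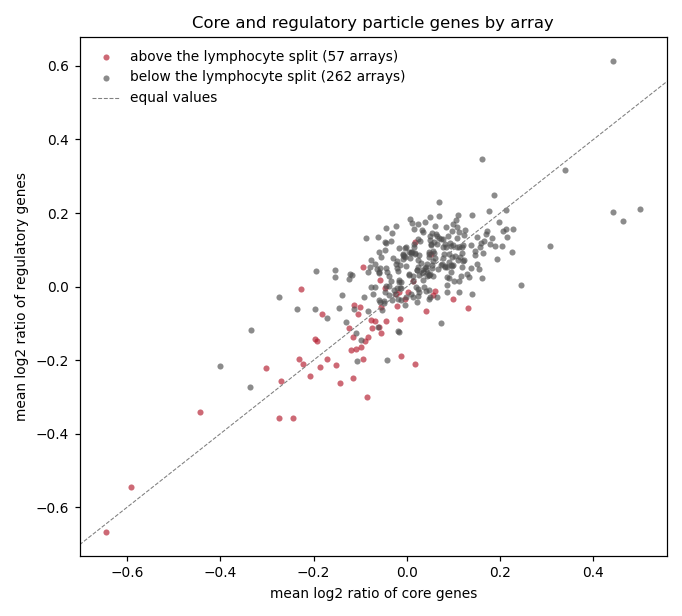
Mean log2 ratio of the 14 core genes (horizontal) and the 10 regulatory genes (vertical), 1 point per array, red for the 57 arrays above the lymphocyte split and grey for the 262 below it. The red points lie to the lower left, with medians of -0.09 and -0.11 for core and regulatory genes, against 0.040 and 0.061 for the grey points, and the ranges overlap.

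Proteasome genes had lower medians on arrays with more lymphocyte RNA. The core mean was -0.64, -0.09 and 0.13 at the lowest, median and highest of the 57 arrays above the split, against -0.40, 0.040 and 0.50 of the 262 below. The regulatory mean was -0.67, -0.11 and 0.12 above the split, against -0.27, 0.061 and 0.61 below. The ranges overlapped for both. The immunoproteasome score, the mean z score of Psmb8, Psmb9 and Psmb10, had a median of 1.77 above the split and -0.44 below. In the fit given below, 53.4% of all tested probes were lower with that score, so lower values were not particular to the members. The shift between the sides was not compared here with that of all probes. The mean log2 ratio of the 11 measured of 13 lymphocyte genes, which define the split, had medians of 0.69 above and -1.17 below. For 15 of 17 macrophage genes the medians were 0.57 above and -0.61 below, for 4 of 8 adipocyte genes 0.17 and -0.68, and for 7 of 8 neutrophil genes -0.32 and -1.51. The muscle gene Pygm (-0.25 above and 0.13 below) and 6 oxidative phosphorylation genes (-0.24 above and 0.061 below) ran the other way. The part of these cell types in the result was not tested. In bulk tissue, fewer muscle cells and less proteasome RNA per cell cannot be told apart.

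Each probe was fitted on the immunoproteasome score with limma across 319 arrays, with Benjamini-Hochberg adjustment over all tested probes and an adjusted p of 0.05 as the threshold. A slope is the change in log2 ratio for 1 SD of the score. The constitutive genes fell as the immunoproteasome rose: 31 of 37 member probes were lower and 1 was higher, against 53.4% lower and 23% higher over all tested probes. The median r with the score was -0.302 over the member probes, against -0.141 over all. All 13 probes of the regulatory particle were lower and 17 of 21 of the core. The largest falls were those of Psma4 probe 10024415562 (-0.143 ± 0.0248 SE, adjusted p = 4.5e-08), the caspase-like Psmb6 (-0.133 ± 0.0148, adjusted p = 7.0e-17) and the lid subunit Psmd7 (-0.132 ± 0.0074, adjusted p = 1.7e-48). Psmd7 had the tightest relation of these (r = -0.706). The probe that was higher was Psmb1 10024409614 (0.0317 ± 0.0148, adjusted p = 0.0434), while the other Psmb1 probe was lower. Psma2, Psma3, Psma4 probe 10024406804, Psmd10 and Psmc3ip did not pass the threshold. Psmd4 probe 10024398553 was lower at -0.0153, but its slope was 0.0099 with array medians subtracted and 0.0157 after quantile normalization. With array medians subtracted 25 member probes were lower and 1 higher, against 38% and 31.1% over all probes.

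These counts were smaller without the arrays rich in other tissue, and so were the shares over all probes. Fewer arrays can also lower a count, and the part of each was not tested. Without those 102 arrays, 13 of 37 member probes were lower and 0 higher by limma, against 19.6% lower and 11.5% higher over all probes. The calls left were those of Psmb7 (-0.0492 and -0.0459), Psmc5 (-0.0438), Psmd7 (-0.0387), Psmb3, Psmd2, Psmc1, Psmc3, Psmc4 and Psmb4. With the first principal component removed, which held 18.3% of the variance, 0 were lower and 1 higher, against 5.76% and 7.59% over all probes. That component itself correlated at 0.519 with the core score and at 0.742 with the regulatory score. Its removal therefore also took out variation of the members, so these counts cannot show whether the relation was absent. The same limit holds for the other member results with this component removed. With the macrophage score in the same fit 22 member probes were lower and 1 higher, against 29% and 18.6% over all probes. There the lowest slopes were those of Psma4 probe 10024415562 (-0.148), Psmb6 (-0.129) and Psmd13 (-0.126), and the highest that of Psmb1 10024409614 (0.0891 ± 0.0271, adjusted p = 0.0035). Psma4 probe 10024406804 (0.0298, adjusted p = 0.354) and Psma7 (0.0156, adjusted p = 0.556) did not pass. In that fit 1 member probe was lower, Psmb7 10024395918, and 1 higher without the 102 arrays, against 2.78% and 3.44% over all probes.

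On the macrophage score alone 32 of 37 member probes were lower and 0 higher, against 54.1% and 21.4% over all probes. Psmd7 (-0.121), Psma4 probe 10024415562 (-0.119) and Psmb1 10024400430 (-0.117) fell most. Psma2 (-0.0147), Psmd10 (-0.0018) and Psmb1 10024409614 (0.0067) did not pass the threshold. Without the arrays rich in other tissue 19 of 37 were lower, against 32.5% over all probes. With array medians subtracted 24 were lower and 1 higher, against 37.4% and 30.1%. The part of macrophages in the relation with the immunoproteasome was not tested beyond these fits.

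**Figure D4:**
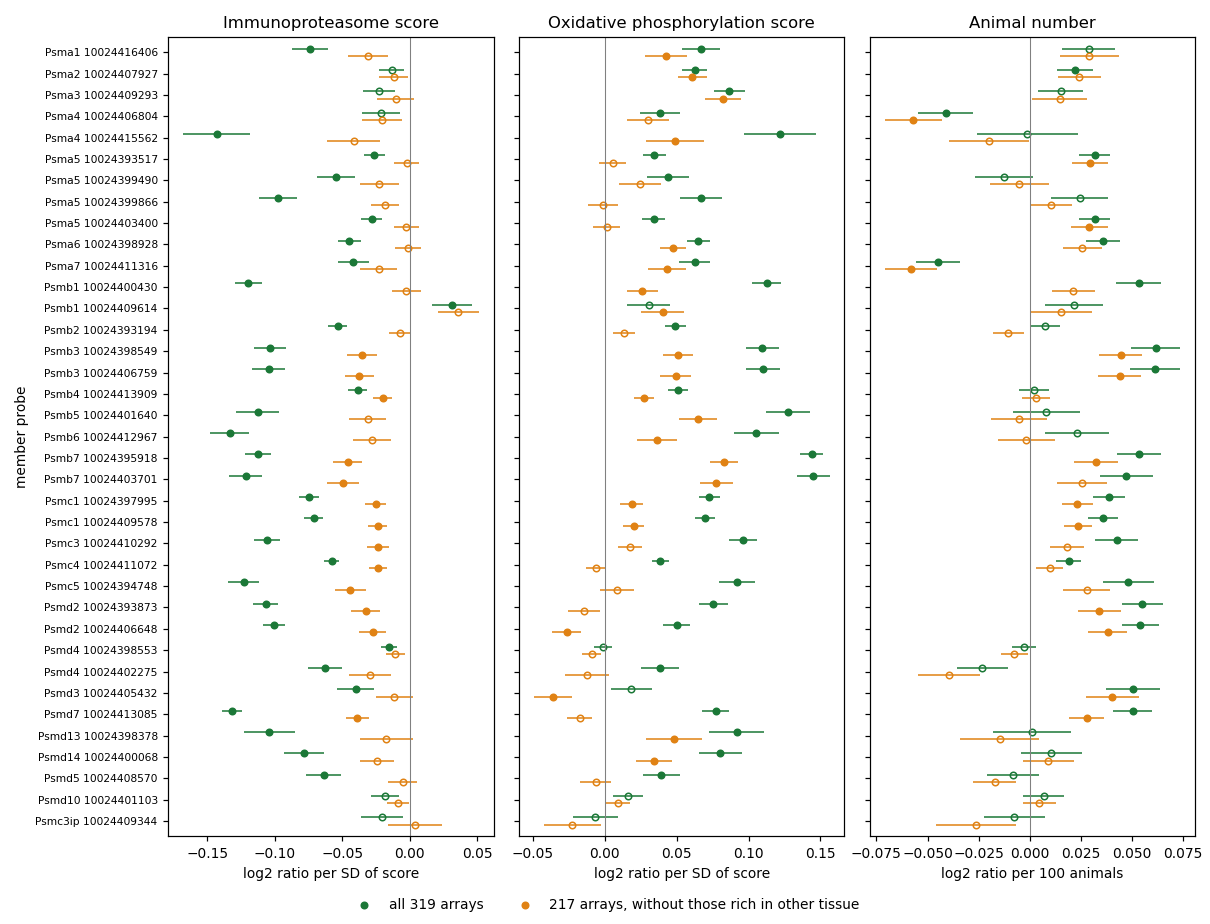
Slope with its SE (horizontal bars) of each of the 37 member probes on the immunoproteasome score, the oxidative phosphorylation score (log2 ratio per SD) and animal number (log2 ratio per 100 animals), for all 319 arrays (green) and for the 217 without those rich in other tissue (orange), with filled points at an adjusted p under 0.05. On all arrays 31 filled points lie left of 0 in the first panel and 32 lie right of 0 in the second.

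Each catalytic subunit was also set against the immunoproteasome subunit that takes its place in the particle, separately on each side of the lymphocyte split. These 6 relations were chosen after other values had been seen. Psmb7 was lower where Psmb10 was higher, with r = -0.706 (rho = -0.629) on 57 arrays above the split and r = -0.513 (rho = -0.495) on 262 below. The permutation p of each, with 100000 resamples and two-sided, was 1e-05, the smallest they can give (adjusted over the 6, 3e-05). Without the 2 arrays farthest in Psmb10 the r was -0.719 and -0.499. Above the split Psmb7 had a lowest, median and highest value of -1.32, -0.12 and 0.27, and Psmb10 of -0.44, 0.41 and 1.72. Below the split Psmb7 ran from -0.56 over a median of 0.083 to 0.57, while Psmb10 ran from -0.69 over -0.30 to 0.43. The r below the split stayed between -0.428 and -0.549 under the 8 other settings tried. Above it, quantile normalization gave -0.269 with an adjusted permutation p of 0.0907, and leaving out arrays of outlying SD gave -0.441.

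The other pairs did not pass the test on either side. Psmb5 with Psmb8 had r = 0.186 above and 0.0878 below the split (adjusted permutation p = 0.250 for both), and Psmb6 with Psmb9 had -0.115 above and -0.0034 below (adjusted permutation p = 0.469 and 0.957). For Psmb5 with Psmb8 above the split rho was -0.244, opposite in sign to r. With the first principal component removed all 4 were positive and passed (0.584 and 0.161 for Psmb5 with Psmb8, 0.264 and 0.133 for Psmb6 with Psmb9). Below the split quantile normalization gave -0.181 for Psmb6 with Psmb9 (adjusted permutation p = 0.00966), and subtraction of array medians 0.139 for Psmb5 with Psmb8 (adjusted permutation p = 0.0490). Above it, without arrays of outlying SD, Psmb5 with Psmb8 had -0.302 (adjusted permutation p = 0.0591). Whether the relation of Psmb7 with Psmb10 differs from these was not tested. Psmb10 also ran against the members as a whole, with r = -0.738 on all arrays, against -0.495 for Psmb8 and -0.546 for Psmb9. On the 217 arrays without those rich in other tissue these values were -0.439, -0.120 and -0.117. Psmb7 with Psmb10 had r = -0.455 on the same 217 arrays. Whether Psmb10 is tied to Psmb7 beyond its relation with the other members was not tested.

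**Figure D5:**
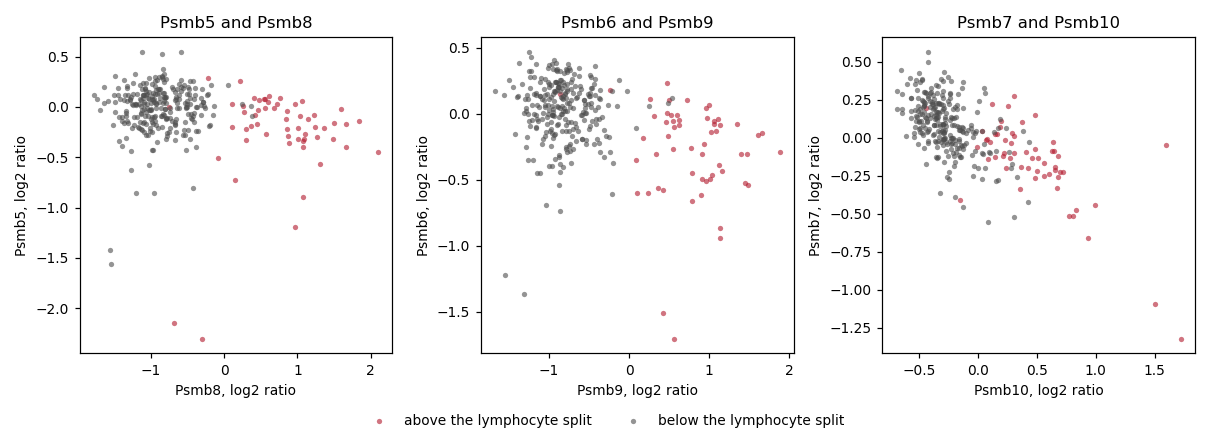
Log2 ratio of each catalytic subunit (vertical) against that of the immunoproteasome subunit that replaces it (horizontal), 1 point per array, red above and grey below the lymphocyte split. In the panel of Psmb7 and Psmb10 points fall from upper left to lower right on both sides (r = -0.706 above and -0.513 below), and a few red points lie far from the rest.

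Proteasome genes were higher on arrays with more RNA of the respiratory chain. The oxidative phosphorylation score rested on 6 of 29 listed genes (Ndufs1, Ndufa2, Ndufv1, Cox7a1, Atp5c1 and Atp5g1), and such a relation was already known from these data, so the values are given by member. On this score 32 of 37 member probes were higher and 0 lower by limma, against 48.9% and 22.4% over all probes. All 14 core genes had a probe that was higher, as had 9 of 10 regulatory genes. Of the marker probes, 15 of 16 for macrophages, 11 of 12 for lymphocytes, 3 of 4 for adipocytes and all 3 of the immunoproteasome were lower with the score, and their part in the result was not tested. The steepest were Psmb7 (0.145 ± 0.0114, adjusted p = 3.3e-29, and 0.144 ± 0.0082, adjusted p = 5.3e-47) and Psmb5 (0.127 ± 0.0156, adjusted p = 4.5e-14). Psmd3 (0.0185), Psmd10 (0.0161), Psmd4 probe 10024398553 (-0.0011), Psmc3ip (-0.0068) and Psmb1 10024409614 did not pass. After subtraction of array medians the counts were 29 higher and 1 lower, against 32.3% and 28.1% over all probes.

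The counts by particle were less alike without the arrays rich in other tissue. There 15 of 21 core probes were higher and 0 lower, while 4 of 13 regulatory probes were higher and 2 lower. Together this was 19 of 37 higher and 2 lower, against 25.6% and 18.1% over all probes. Psmb7 (0.0831 and 0.0776) and Psma3 (0.0824) led the core, and Psmd3 (-0.0360, adjusted p = 0.0205) and Psmd2 probe 10024406648 (-0.0267, adjusted p = 0.0201) were lower. On the 262 arrays below the lymphocyte split the r with the score was 0.423 for the core mean and -0.0044 for the regulatory mean. Whether the particles differ in this relation was not tested.

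Slow fibre content went with few members and with few probes in general. On a score of 9 slow fibre genes 2 of 37 member probes were lower and 0 higher, against 7.73% and 7.68% over all probes. These were Psmd4 probe 10024398553 (-0.0312 ± 0.0059, adjusted p = 9.3e-06) and Psmd7 (-0.0286 ± 0.0103, adjusted p = 0.0410). Psmd2 (-0.0197), Psma3 (0.0306, adjusted p = 0.0559), Psmb1 10024409614 (0.0272) and Psmb5 (0.0141) did not pass. Without the arrays above the lymphocyte split 7 were lower and 0 higher, against 12% and 11.2% over all probes.

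For Nfe2l1, the factor that restores proteasome genes when proteolysis is blocked, 22 of 37 member probes were higher and 5 lower with its ratio, against 49.2% and 24.7% over all probes. Marker probes moved with Nfe2l1 too: 15 of 16 for macrophages, 11 of 12 for lymphocytes and 4 of 4 for adipocytes were lower and Pygm was higher (r = 0.638), and their part in the result was not tested. By particle the member counts were 11 of 13 regulatory probes higher and 1 lower, and 11 of 21 core probes higher and 3 lower. Psmd7 (0.131 ± 0.0075, adjusted p = 8.1e-47), Psmd3 (0.102 ± 0.0128, adjusted p = 1.7e-13) and Psmd2 (0.0936 ± 0.0097, adjusted p = 1.2e-18) rose most. Psma3 (-0.0542), Psma5 probe 10024399490 (-0.0443) and Psmd14 (-0.0425) fell most. The direction turned with the processing: 9 were higher and 21 lower with the first principal component removed (30.8% and 24.3% over all probes), 10 higher and 18 lower below the lymphocyte split (30.9% and 23.6% over all probes), and 13 higher and 9 lower with array medians subtracted (34.9% and 33.4% over all probes). The array median itself correlated at 0.334 with the core and 0.563 with the regulatory score.

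Along animal number more members rose than fell. By limma 18 of 37 member probes were higher and 2 lower with the number, against 18.9% and 11.8% over all probes. Psmb3 (0.0617 ± 0.0120 and 0.0612 ± 0.0123 log2 units per 100 animals, adjusted p = 1.9e-05 and 3.7e-05) and Psmd2 (0.0551 ± 0.0101, adjusted p = 5.1e-06) rose most. Psma7 (-0.0450 ± 0.0106, adjusted p = 0.00048) and Psma4 probe 10024406804 (-0.0412 ± 0.0133, adjusted p = 0.0115) fell, and Psmd4 probe 10024402275 (-0.0232) did not pass. In 8 runs of about 40 animals the core mean was lowest in the second (animals 46 to 88, -0.041 ± 0.18 SD) and highest in the sixth (animals 234 to 275, 0.077 ± 0.14). The second run held 17 arrays above the lymphocyte split, the most of any, and the sixth 3. The fourth run also held 3, with a core mean of -0.024, and the first held 13, with 0.0066. The part of lymphocyte RNA in the differences between runs was not tested. Without the 102 arrays rich in other tissue 11 were higher and 2 lower, against 4.73% and 5.23% over all probes. The sources used here do not say what animal number stands for (litter, date or order of processing).

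Among other genes of the pathway, listed by role, 2 of 3 measured core chaperones and 3 of 4 bound factors had an r over 0.5 with the members, and 0 of 3 caps and inhibitors. Of non-member probes, 7.47% had an r over 0.5 with the mean z score of all members, and 21 of the 37 member probes had one with that of the others. The core chaperones Psmg2 (0.694) and Psmg1 (0.564) did and Psmg4 (-0.239) did not. Of the factors bound to the particle, the deubiquitinases Usp14 (0.555) and Uchl5 (0.524) and the ligase Ube3c (0.527) did, and the small lid subunit Sem1 (0.0956) did not. The alternative caps and inhibitor did not: Psme1 had an r of -0.342, Psmf1 of -0.178 and Psme3 of -0.0791. Of ubiquitin-conjugating enzymes 2 of 6 did, Ube2b (0.651) and Ube2d3 (0.628), and of shuttles and segregase genes 2 of 7, Ubqln4 (0.587) and the unfoldase Vcp (0.516). Without the 102 arrays rich in other tissue, Psmg2 (0.437), Psmg1 (0.299), Usp14 (0.490), Uchl5 (0.314), Ube3c (-0.0834), Ube2b (0.411), Ube2d3 (0.376), Ubqln4 (0.299) and Vcp (0.367) were all below 0.5. None of the 5 transcription factor genes reached 0.5 with the members as a whole, with Nfe2l2 (0.420) and Nfyb (0.407) nearest. By particle, Nfe2l1 had an r of 0.568 with the regulatory score and 0.144 with the core score, and no other factor passed 0.5 with either. With all members Nfe2l1 had 0.315, and -0.088 without the 102 arrays.

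Complexes outside the pathway varied. Of the CCT chaperonin, which folds actin and tubulin, 6 of 8 genes had an r over 0.5, led by Cct6a (0.685) and Cct7 (0.671). For the COP9 signalosome, which shares its architecture with the lid, it was 4 of 9, led by Cops4 (0.798), and for the initiation factor eIF3, 2 of 8, with Eif3h at -0.239. Without the 102 arrays Cct6a (0.537) and Cops4 (0.585) were still over 0.5 and Cct7 (0.301) was not. The named genes most like the members over 319 arrays were Cops4, Strap (0.782), Gstm5 (0.778), Zfp354a (0.774), Col1a1 (0.767), Eif3j1 (0.762), Pak1ip1 (0.760), Polr2c (0.760), SCCPDH (0.758) and Cnbp (0.755). Most opposed were Xylt2 (-0.828), Ankrd13a (-0.820), Myo9b (-0.817), Myh9 (-0.814) and Retreg2 (-0.804). On the 217 arrays without those rich in other tissue these values were smaller, between 0.428 and 0.654 for the first 10 and between -0.548 and -0.666 for the last 5.

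Neighbours in gene order correlated with members about as often as neighbours do in general. Within 10 places on either side, 61 of 540 pairs of a member and a neighbour (11.3%) had an absolute r over 0.5, against 9.01% of all such gene pairs. The strongest were Psmd14 with the next gene, Tank (0.850), Psmd10 with Prps1 (0.808), Psmc5 with Tex2 (0.786), Psma5 with Stxbp3 (0.770) and Psmc3 with Acp2 (-0.731). For 6 members no neighbour passed.

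An F2 intercross gives 3 genotype classes in proportions of 1, 2 and 1 at each locus, and a gene set by its own locus can show them. A mixture of 3 such classes was called for 0 of 37 member probes (BIC gain over 10 and spacing over 3 component SDs), against 0.556% of all tested probes. A share that low leaves a count of 0 uninformative about the members.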

How the data were processed

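RNA of 319 muscle samples was measured on 2-colour arrays, animal (Cy3) against a common pool (Cy5), per the labels. The authors deposited 1 log10 ratio per probe and array, limited at 2 either way; background correction and normalization are not given in the sources used here. That the logarithm has base 10 and runs animal over pool was read from the limits and from Y-linked genes. Ratios were converted to log2. Missing values made up 0.654%. Probes were named from the platform annotation (13639 with 1 symbol) and tested where at least 80% of arrays had a value (23190 probes).

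Slopes came from limma 3.58.1 in R 4.3.3 (lmFit and eBayes, 7 fits, 1 covariate each except the fit with the macrophage score held), with Benjamini-Hochberg adjustment over all tested probes, after tests on simulated data. Correlations used numpy 2.4.6 and scipy 1.17.1. A score is the mean z score of a list's genes. All arrays were 1 group and each array was taken as 1 replicate, although 2 arrays carry animal number 227. The number of arrays limits the precision.

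Members and lists were chosen with earlier results of these data known. Full values are given for the members highest and lowest in r in each particle, the catalytic subunits, those of largest SD, those whose probes disagree (r under 0.2) and those that are no subunit, and in each fit for the 3 highest and 3 lowest slopes. The tests of catalytic subunits against their replacements, and the settings that leave out arrays above the lymphocyte or immunoproteasome split or regress out 4 marker scores, were chosen after seeing the data.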

Additional observations from a re-analysis of the deposited data

How the results depend on the processing

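Of 496 comparisons of 42 named slopes with other settings, 422 kept their direction and side of the threshold, 31 lost the call, 14 gained it and 29 changed sign. Counts below are of 37 member probes, with the share of all probes in parentheses. With array medians subtracted 1 was lower with oxidative phosphorylation (28.1%), 1 higher with macrophages (30.1%), and 13 were higher (34.9%) and 9 lower (33.4%) with Nfe2l1. With quantile normalization 2 were higher with the immunoproteasome (25.5%), 2 lower with oxidative phosphorylation (23.6%), 1 higher with macrophages (23.3%) and 1 higher with slow fibre (16.3%). With the first principal component removed 0 were lower with the immunoproteasome (5.76%) and, with macrophages held, 0 higher (8.02%) and 0 lower (6.3%), 16 were higher (26.5%) and 3 lower (25.5%) with oxidative phosphorylation, 2 lower with macrophages (18.7%), 1 higher with slow fibre (9.52%), and 9 higher (30.8%) and 21 lower (24.3%) with Nfe2l1. Without arrays rich in other tissue 0 were higher (11.5%) and 13 lower (19.6%) with the immunoproteasome, 1 lower with macrophages held (2.78%), 19 higher (25.6%) and 2 lower (18.1%) with oxidative phosphorylation, 19 lower with macrophages (32.5%), 1 higher (10.3%) and 5 lower (10.5%) with slow fibre, 10 higher (28.9%) and 11 lower (20.8%) with Nfe2l1, and 11 higher with animal number (4.73%). Without arrays above the immunoproteasome split 20 were lower with the immunoproteasome (22.8%), 9 lower with macrophages held (8.37%), 17 higher (27.4%) and 3 lower (21.5%) with oxidative phosphorylation, 21 lower with macrophages (32.8%), 7 lower with slow fibre (12%), 10 higher (31.2%) and 15 lower (23.7%) with Nfe2l1, and 1 lower with animal number (5.64%). Without those above the lymphocyte split 14 were lower with the immunoproteasome (19.6%), 3 lower with macrophages held (4.96%), 17 higher (27.4%) and 2 lower (20.8%) with oxidative phosphorylation, 20 lower with macrophages (32.6%), 7 lower with slow fibre (12%), and 10 higher (30.9%) and 18 lower (23.6%) with Nfe2l1. Without arrays of outlying SD 0 were higher with the immunoproteasome (22.7%) and 1 higher with slow fibre (10%). With only probes measured on all arrays 1 was higher (7.82%) and 1 lower (8.02%) with slow fibre and 1 lower with animal number (12%), and with the 8 runs as a block 1 was lower with slow fibre (6.67%).

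The r of core with regulatory score was 0.602 with medians subtracted, 0.600 with quantile normalization, 0.509 without the first component, 0.579 without arrays rich in other tissue, 0.560 without those above the lymphocyte split and 0.518 with 4 marker scores regressed out. Of the sign changes, those with the first component removed were Psmd7 (0.00106) and Psmd4 (0.0118) on the immunoproteasome, Psmd13 with macrophages held (0.00537), and Psmd7 (0.0107), Psmb1 10024400430 (0.00583), Psmd10 (0.0115) and Psmb1 10024409614 (-0.0151) on macrophages. With medians subtracted and with quantile normalization, Psmd4 (0.00991 and 0.0157) and Psma2 (0.0121 and 0.0157) turned on the immunoproteasome, and Psma2 (0.0117 and 0.0109) and Psmd10 (0.0293 and 0.0264) on macrophages. On oxidative phosphorylation Psmd10 turned with quantile normalization (-0.0194), without outlying arrays (-0.00618) and with no filter on missing values (-0.0138), Psmd4 with no filter (0.00094) and with runs as a block (0.000139), and Psmc3ip without outlying arrays (0.00222). Psma7 turned with runs as a block and macrophages held (-0.00881). On macrophages, without arrays rich in other tissue, without outlying arrays and without arrays above the immunoproteasome split, Psmd10 had 0.0116, 0.0132 and 0.00602 and Psmb1 10024409614 had -0.00171, -0.0105 and -0.00012. Psmd10 had 0.00539 without arrays above the lymphocyte split.

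The r of Psmb6 with Psmb9 turned without the first component (0.264 above and 0.133 below the lymphocyte split) and with medians subtracted (0.00281 above and 0.0496 below). The r of Psmb5 with Psmb8 turned without outlying arrays (-0.302 above), with quantile normalization (-0.0749 below) and with runs centred (-0.00574 below). The cause was not tested for any of these. The fit on the ligases Fbxo32 and Trim63 was not run, since neither had a tested probe. No paired analysis was possible because all arrays form 1 group.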
